A study of Rattus norvegicus with 18 samples.

Results

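The microRNAs rno-miR-101a and rno-miR-101b were followed through rat cortical development in small RNA sequencing libraries. They were 2 of the 160 names counted in these libraries, which comprised 59 known miRNAs and 101 candidates. Both were taken by name, and a read was assigned to them when its sequence was identical to the mature sequence over their common length, allowing its start to lie up to 3 nt on either side of the mature start and its end to run up to 3 nt beyond the mature sequence, while shorter ends were kept. The tissue came from Sprague Dawley rats on embryonic days E10, E13 and E17, at birth (P0), and on postnatal days P3, P7, P14 and P28, with no treatment or genetic change named. P0 had 2 tissue samples and every other stage had 1, and each of the 9 tissue samples was sequenced in 2 runs, giving 18 libraries. The runs are technical replicates, so p-values over tissue samples rest on single samples at all stages but P0. By the labels the 2 earliest stages are forebrain and the later ones somatosensory cortex, while the methods of the study give whole cortex at the first 2 stages and its dorsolateral part later. Stage and tissue therefore cannot be told apart between these groups. In bulk tissue, fewer cells of a type and less of the RNA per cell also cannot be told apart.

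A microRNA is cut from a hairpin precursor and guides Argonaute proteins to complementary sites in messenger RNAs. Pairing rests mostly on the seed, bases 2 to 8 counted from the 5′ end of the microRNA, so a start that moves by 1 base changes the seed. The miR-101 family is known for repressing Ezh2, the histone methyltransferase of Polycomb repressive complex 2, which keeps developmental genes silent in neural progenitors.

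The mature sequences below show how alike the members are, with the seed in capitals. They start with the bases that the study's list of nucleotide changes fixes for each name, and the 3′ end is that of the RefSeq entry.
rno-miR-101a: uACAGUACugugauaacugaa
rno-miR-101b: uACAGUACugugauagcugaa
Both have 21 nt and differ at position 16 alone, counted from 1 at the mature 5′ end, by A16G (miR-101a has A and miR-101b has G). The seed is held by these 2 entries and by no other of 691 distinct rat mature sequences in RefSeq. Every tag of 18 nt or more that fits a member reaches the base that separates them, and 0 tags fitted both. No tag of either member fitted another of the 160 names.

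The hairpins are shown next, with the mature sequence in capitals, because the bases on either side of it tell which read ends can come from the precursor. In RefSeq (GRCr8), Mir101a lies at chr5:121081683-121081757 on the minus strand and the gene of miR-101b, Mir101-2, at chr1:236273922-236274018 on the plus strand, within the span of Rcl1.
Mir101a: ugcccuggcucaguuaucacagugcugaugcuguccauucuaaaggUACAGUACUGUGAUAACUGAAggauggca
Mir101-2: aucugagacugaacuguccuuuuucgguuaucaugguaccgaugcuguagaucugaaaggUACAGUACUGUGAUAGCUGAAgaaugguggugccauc
In both precursors the base before the mature 5′ end is g, and the first base past the mature 3′ end is g as well. Nearly all reads of these hairpins came from the 3p arm that holds the mature sequence. For Mir101a the 3p arm gave 2377042 reads and the 5p arm 17, and for Mir101-2 the arms gave 2006364 and 8 reads.

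A few tags of each member carried most of its reads, and some are printed because they show the read ends described further on. Capitals mark bases 2 to 8 of each tag, which is the seed that this tag would present. The forms of rno-miR-101a come first.
miR-101a, starting 1 nt early and ending at position 18: gUACAGUAcugugauaacu
miR-101a, starting at the mature 5′ end and ending at position 18: uACAGUACugugauaacu
miR-101a, starting 1 nt early and ending at the mature 3′ end: gUACAGUAcugugauaacugaa
These, the first 3 by abundance, held 52.7%, 27.8% and 5.53% of the 2427057 reads of rno-miR-101a. Without run 2 of E10, a library described below, the third held 1.63%, since 72.4% of its reads came from there. The matching forms of rno-miR-101b follow.
miR-101b, starting 1 nt early and ending at position 18: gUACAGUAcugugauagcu
miR-101b, starting at the mature 5′ end and ending at position 18: uACAGUACugugauagcu
miR-101b, starting 1 nt early and ending at the mature 3′ end: gUACAGUAcugugauagcugaa
These held 47.0%, 42.3% and 2.70% of 2029683 reads, and the last of them 0.108% without run 2 of E10, which gave 96.2% of its reads. Summed over all libraries, the leading tag of both members thus began with the templated g and presented the seed uacagua, which no mature rat sequence in RefSeq has. Early-starting forms led in 17 of 18 libraries for rno-miR-101a. For rno-miR-101b they led in 9, up to P0, and the form with the mature 5′ end led in the other 9, which were run 1 of P0 replicate 2 and both runs of P3, P7, P14 and P28. The 3 bases gaa at the mature 3′ end were missing from the 2 leading tags of each member.

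The libraries held between 4899010 and 16590379 clean reads. One library stood apart: in run 2 of E10 the reads of both members ended mostly at the mature 3′ end, whereas in the other 17 libraries they ended 3 nt before it. The same library had the lowest median share of reads ending 3 nt or more early over 59 other RefSeq mature names, 0.105%, against 2.19% to 14.2% in the others. These others were not alike: the share was 8.68% to 14.2% in run 1 of E13, E17, P0 replicate 1, P7, P14 and P28. In the remaining libraries it was 2.19% to 5.74%. Because of run 2 of E10, the main comparisons are given also with E10 taken from run 1 only. Pooled shares of reads are given also without run 2 of E10 where it holds many of them. The neuronal miRNA rno-miR-124 lay at 16225 to 112666 TPM (reads per 1000000 clean reads) in all 9 samples, and rno-miR-128-3p, abundant in brain, at 1654 TPM at E10 and up to 173758 TPM at P14.

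Both members were among the abundant miRNAs of every sample. By the mean level of the 2 runs, rno-miR-101a ranked between place 8 (both P0 samples) and place 16 (P28) of 691 RefSeq mature sequences, and rno-miR-101b between place 11 (E10) and place 19 (E17 and P28).

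The level of rno-miR-101a differed between runs by about as much as between the highest and lowest samples of 1 run. In run 1 it was 21076 TPM at E10, 14199.8 at E13, 11234 at E17, 25849.8 and 29498 at P0, 20732 at P3, 16307 at P7, 13921 at P14 and 11615 at P28. In run 2 the values in the same order were 9705, 4184, 10766, 6419 and 6361, 6702, 6327, 6479.6 and 9122 TPM. Run 1 was higher in 9 of 9 samples, and the P0 samples, the highest of run 1, were among the low ones of run 2. The size of the log2 ratio between runs had a median of 1.37 and reached 2.21 in P0 replicate 2, while the samples spanned 1.39 within run 1, 1.36 within run 2 and 0.96 as means of the runs on the log2 scale. The runs were closest at E17 and P28. As means of the runs, the order from high to low was P0 replicate 2, P0 replicate 1, E10, P3, P7, E17, P28, P14 and E13, from 17929.6 to 9192 TPM. The mean of P0 was 17032 ± 1269.6 TPM (SD, n = 2). The run values overlapped in all 8 pairs of neighbours in this order, so none of these steps exceeded the spread between runs. Because run 1 was higher in every sample, the order was also read within each run. In both runs E10 lay above P3 and P3 above P7, while every other pair of neighbours changed its order between runs.

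For rno-miR-101b a single library gave the highest level. In run 1 its level was 37653 TPM at E10, 7892 at E13, 4346 at E17, 8265 and 16697 at P0, 12921 at P3, 9489 at P7, 8247 at P14 and 6446 at P28. Run 2 gave 6145, 7678, 8559.6, 4449 and 5527, 5820.1, 8342, 9713 and 9774 TPM in this order. E10 was thus the highest of the samples in run 1 and below 5 of the other 8 in run 2, where P14 and P28 were highest. Run 1 was higher in 6 of 9 samples, and the largest gap, 2.62 on the log2 scale, was at E10. The order of the means was E10, P0 replicate 2, P3, P14, P7, P28, E13, E17 and P0 replicate 1, from 21899 to 6357 TPM, and again the runs overlapped in all 8 pairs of neighbours. Of these pairs, E10 and P0 replicate 2 alone kept their order in both runs. P0 was 8734 ± 3362 TPM (SD, n = 2).

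**Figure D1:**
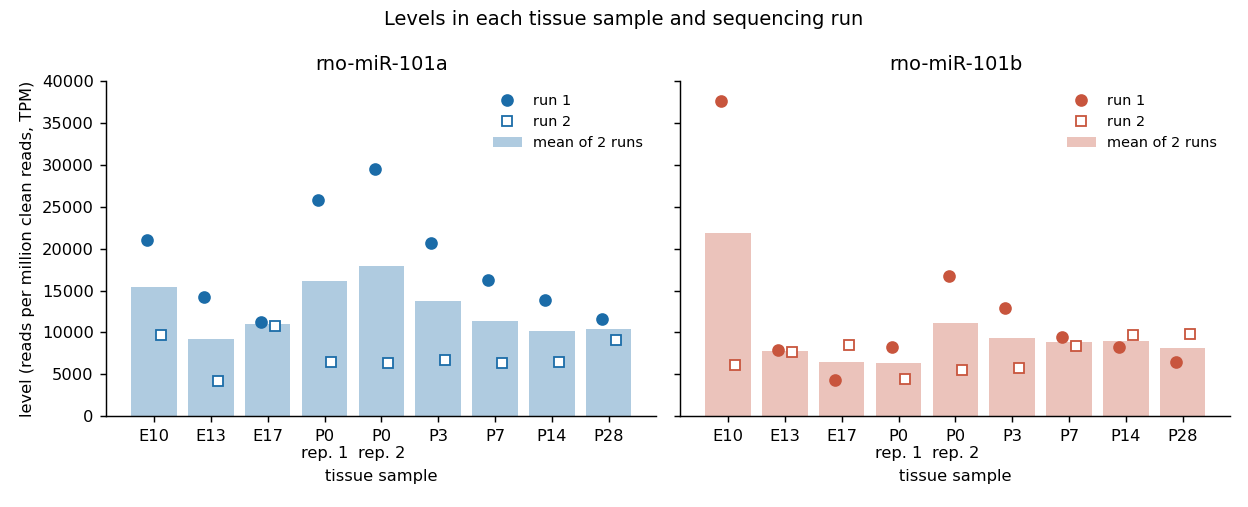
Level of rno-miR-101a (left) and rno-miR-101b (right) in TPM for each tissue sample in developmental order; circles are run 1, squares run 2 and bars their mean. Run 1 of rno-miR-101a lies above run 2 in all 9 samples, and the E10 value of rno-miR-101b in run 1, 37653 TPM, lies above every other point of both panels.

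The question of a trend over development was put to a fit of the log2 count on the stage order, from 1 at E10 to 8 at P28, over all names with enough counts (edgeR's quasi-likelihood test with TMM normalization and Benjamini-Hochberg adjustment). Neither member passed. The slope of rno-miR-101a was 0.07 log2 per stage (SE 0.12, adjusted p = 0.634) and that of rno-miR-101b 0.06 (SE 0.09, adjusted p = 0.583). Among all names tested, 74 of 148, 50%, passed the same test, 31 with a rise and 43 with a fall, so a miss was as frequent as a call. Their direction depended on the scaling. With library totals in place of TMM, the slopes became -0.06 and -0.09, the median slope of all 148 names went from -0.07 to -0.20, and the calls became 18 rises and 65 falls. The runs also disagreed on rno-miR-101b, with a slope of -0.17 in run 1 and of 0.21 in run 2, where alone it passed (SE 0.07, adjusted p = 0.0317 by edgeR). With E10 from run 1 only, the slopes were 0.03 for rno-miR-101a and -0.03 for rno-miR-101b.

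The comparison of the late postnatal samples (P7, P14 and P28) with the embryonic ones (E10, E13 and E17) gave the same picture. The late samples differed by a log2 fold change of 0.43 for rno-miR-101a (SE 0.41, edgeR adjusted p = 0.415) and of 0.46 for rno-miR-101b (SE 0.40, adjusted p = 0.381). Of all names, 67 of 148, 45.3%, passed, 26 higher and 41 lower in the late samples. With 1 sample left out the number passing ranged from 38 to 76, and in run 1 alone it was 37 of 120. With library totals the values were -0.24 and -0.33, against a median over all names of -1.06 in place of -0.39, and 17 names were higher and 54 lower. With E10 from run 1 only the values were 0.22 and -0.05.

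The balance between the members was read from the ratio of their levels, which within 1 library does not depend on its total but over the mean of 2 runs does. On the mean levels rno-miR-101b was 1.42 times rno-miR-101a at E10 and below it in the other 8 samples, with ratios of 0.847 at E13, 0.587 at E17, 0.394 and 0.620 at P0, 0.683 at P3, 0.788 at P7, 0.880 at P14 and 0.782 at P28. The lowest value was that of P0 replicate 1, and it differed from the other P0 sample by more than the steps between P3 and P28. With the reads of both runs summed in place of averaged levels, the ratio was 0.997 at E13 and 1.14 at P14, so that rno-miR-101b exceeded rno-miR-101a at P14 as well as at E10 (1.32), and it lay between 0.450 and 0.909 in the other samples. The runs did not rank the members alike. In run 1 the ratio was 1.79 at E10 and between 0.320 and 0.623 in all other samples. In run 2 it was 0.633 at E10, 1.83 at E13, 0.795 at E17, 0.693 and 0.869 at P0, 0.868 at P3, 1.32 at P7, 1.5 at P14 and 1.07 at P28. The members thus exchanged their order between runs in 5 samples, E10, E13, P7, P14 and P28.

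**Figure D2:**
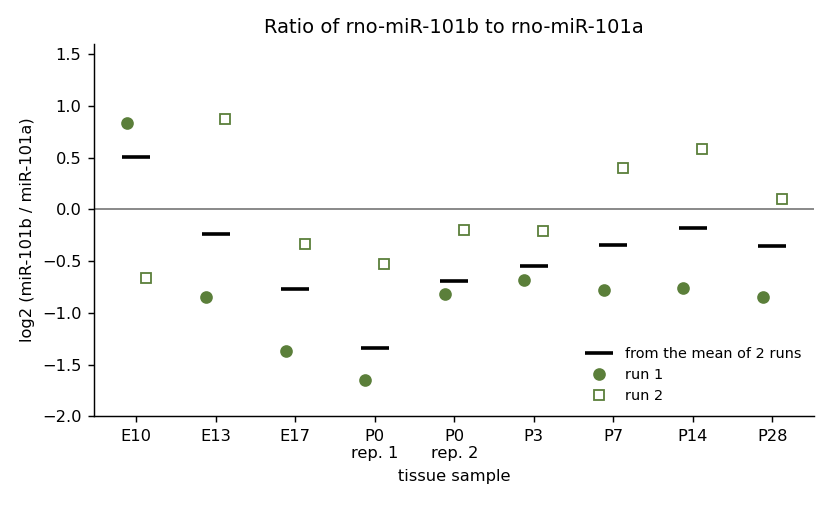
Log2 ratio of the rno-miR-101b level to the rno-miR-101a level in each tissue sample; circles are run 1, squares run 2 and dashes the ratio of the mean levels, and the line at 0 marks equal levels. Run 1 lies above 0 at E10 alone, and run 2 lies above 0 at E13, P7, P14 and P28.

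No trend of this ratio with stage passed the test. Pearson's r of the log2 ratio on the stage order was -0.19 (exact permutation p = 0.650, adjusted p = 0.650 over the 5 single-value tests made on the pair) and Spearman's rho -0.05 (exact permutation p = 0.904, n = 9). Within run 1 r was -0.34 and within run 2 it was 0.34, and with E10 from run 1 only it was -0.27. With the reads of both runs summed r was -0.05. Among the 7 somatosensory cortex samples r turned to 0.72 (exact permutation, adjusted p = 0.0685), which missed the threshold. Without E10 and P28, samples far from the median stage, r was 0.30 (exact permutation p = 0.526), and without P14 and P28 it was -0.51 (exact permutation p = 0.231).

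The 5′ ends of both members differed between the stages sampled. For rno-miR-101b the share of reads starting 1 nt early fell with stage also within somatosensory cortex (Pearson's r = -0.84, exact permutation, adjusted p = 0.0304). For rno-miR-101a this fall missed the threshold there (r = -0.57, exact permutation, adjusted p = 0.175), so for this member stage and tissue cannot be told apart. Reads starting 1 nt before the mature 5′ end, which present the shifted seed, made up the larger share at early stages, and their share was lower later for both members. Together with reads starting at the mature 5′ end they made at least 99.8% of the rno-miR-101a reads and 97.9% of the rno-miR-101b reads in every library, and 98.2% or more of the early-starting reads began with the templated g. The 95% Wilson intervals of these shares were at most ±0.372 points wide for rno-miR-101a and ±0.487 for rno-miR-101b, over 39683 to 415839 reads per library, and cover counting error only.

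For rno-miR-101a the early-starting share was 83.3% at E10, 77.2% at E13, 62.0% at E17, 64.9% and 60.3% at P0, 61.6% at P3, 60.7% at P7, 63.2% at P14 and 55.3% at P28, as means of the runs. It was thus highest at the 2 forebrain stages, and the samples from E17 to P14 lay within 5 points of each other. The runs gave 81.8% and 84.8% at E10 and 48.0% and 62.5% at P28, and they were far apart at P0 replicate 1, with 55.8% and 74.0%. P0 was 62.6% ± 3.26 (SD, n = 2).

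For rno-miR-101b the share was 71.4% at E10, 69.6% at E13, 56.0% at E17, 57.3% and 48.7% at P0, 46.6% at P3, 45.5% at P7, 44.7% at P14 and 43.7% at P28. From P3 on each later mean was lower than the one before it, and there and in P0 replicate 2 more reads started at the mature 5′ end than before it. P0 was 53.0% ± 6.05 (SD, n = 2). The runs were close here, with 45.7% and 45.2% at P7 and 43.0% and 44.4% at P28, and farther apart at E10, with 65.0% and 77.8%, and at P0 replicate 1, with 53.3% and 61.3%.

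**Figure D3:**
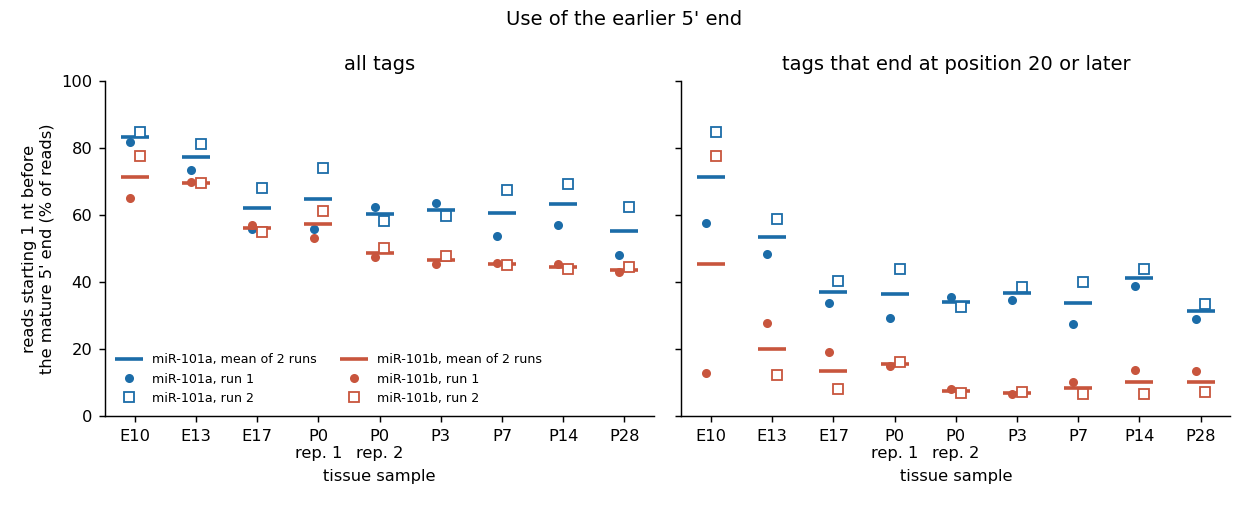
Share of reads that start 1 nt before the mature 5′ end (% of the reads of each member) by tissue sample, for all tags (left) and for tags that reach position 20 or beyond (right); circles are run 1, squares run 2 and dashes their mean. The means fall from 83.3% to 55.3% for rno-miR-101a and from 71.4% to 43.7% for rno-miR-101b between E10 and P28, and the right panel lies lower for both members.

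The fall passed the test for both members. Pearson's r with the stage order was -0.82 for rno-miR-101a (exact permutation p = 0.00471, adjusted p = 0.00589, n = 9), with Spearman's rho of -0.71 (exact permutation p = 0.0371). For rno-miR-101b r was -0.91 (exact permutation p = 0.000336, adjusted p = 0.00168, n = 9) and rho -0.97 (exact permutation p = 8.82e-05). Without E10 and P28, r was -0.60 for rno-miR-101a (exact permutation p = 0.166), which no longer passed, though it did with either of them left out alone (-0.72 without E10 and -0.77 without P28, exact permutation, adjusted p = 0.0376 and 0.0306), while rno-miR-101b gave -0.88 (exact permutation p = 0.00754). Without P14 and P28 the values were -0.86 and -0.94 (exact permutation p = 0.00714 and 0.00159). Within the runs r was -0.82 in run 1 and -0.65 in run 2 for rno-miR-101a, where run 2 missed the threshold (exact permutation, adjusted p = 0.0723), and -0.89 and -0.90 for rno-miR-101b. With E10 from run 1 only, r was -0.82 and -0.89. Among the 7 somatosensory cortex samples alone, r was -0.57 for rno-miR-101a (exact permutation, adjusted p = 0.175) and -0.84 for rno-miR-101b (exact permutation, adjusted p = 0.0304).

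The members also differed from each other. The early-starting share of rno-miR-101a exceeded that of rno-miR-101b in 9 of 9 samples, by 11.7 percentage points on average (SD 4.12; exact sign-flip permutation p = 0.00391, the smallest that 9 samples allow, adjusted p = 0.00589). The difference was 8.83 points in run 1 and 14.5 in run 2. In run 1 of E17 alone the order was the opposite, with 55.8% for rno-miR-101a and 57.1% for rno-miR-101b. With E10 from run 1 only it was 12.2 points.

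The levels of the forms, in TPM, depended on the run. The early-starting form of rno-miR-101a was 17231 TPM at E10 and 5581 at P28 in run 1, where P0 replicate 2 was highest with 18419, and 8234 and 5702 TPM in run 2, where E10 was highest and E13 lowest. Its form with the mature 5′ end was lowest at E13 in both runs, with 3768 and 789 TPM, and highest at P0 replicate 1 in run 1 (11404 TPM) and at P28 in run 2 (3411 TPM). The early-starting form of rno-miR-101b was 24479.5 TPM at E10 and 2771 at P28 in run 1, against 4779 and 4343 TPM in run 2, where E13 was highest with 5334 and P0 replicate 1 lowest with 2727. For its form with the mature 5′ end E10 was the highest sample of run 1, with 13069 TPM, and the lowest of run 2, with 1238 TPM.

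Among long reads the early-starting share was lower. The deposited tags have at least 18 nt, so a read that starts at the mature 5′ end and stops at position 17 is not among them, while one that starts 1 nt earlier is. Among tags that end at position 20 or later, where this limit plays no part, the early-starting share was 31.3% to 71.2% for rno-miR-101a and 7.02% to 45.3% for rno-miR-101b over the samples, with the highest value at E10. At E10 the runs disagreed, with 57.6% and 84.8% for rno-miR-101a and 12.9% and 77.7% for rno-miR-101b, and with E10 from run 1 only the highest sample of rno-miR-101b was E13, with 19.97%. The correlation with stage was -0.73 for rno-miR-101a and -0.70 for rno-miR-101b (exact permutation, adjusted p = 0.0212 for each). With E10 from run 1 only it was -0.74 for rno-miR-101a (exact permutation, adjusted p = 0.0397) and -0.56 for rno-miR-101b, which no longer passed (exact permutation, adjusted p = 0.151). The difference between the members in these tags was 26.4 points, and 28.5 with E10 from run 1 only. The shares rest on 992 to 158835 reads per library, with intervals of up to ±2.40 points.

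At the 3′ end the common form of both members was shorter than the mature sequence. Reads of rno-miR-101a ending at position 18 made 75.9% to 91.1% of its reads in 17 libraries, with a median of 87.1%, against 0.126% in run 2 of E10. Reads ending at the mature 3′ end made 1.87% to 10.5% in the 17 libraries and 70.6% in run 2 of E10. For rno-miR-101b the form ending at position 18 made 89.6% to 95.5% in the 17 libraries and 0.913% in run 2 of E10, and the form ending at the mature 3′ end 0.188% to 1.10% and 58.2%. The separation was complete for both members and both forms. Run 1 of the same E10 tissue sample, with 89.8% and 94.8% at position 18, lay with the other libraries. What sets run 2 of E10 apart was not tested.

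**Figure D4:**
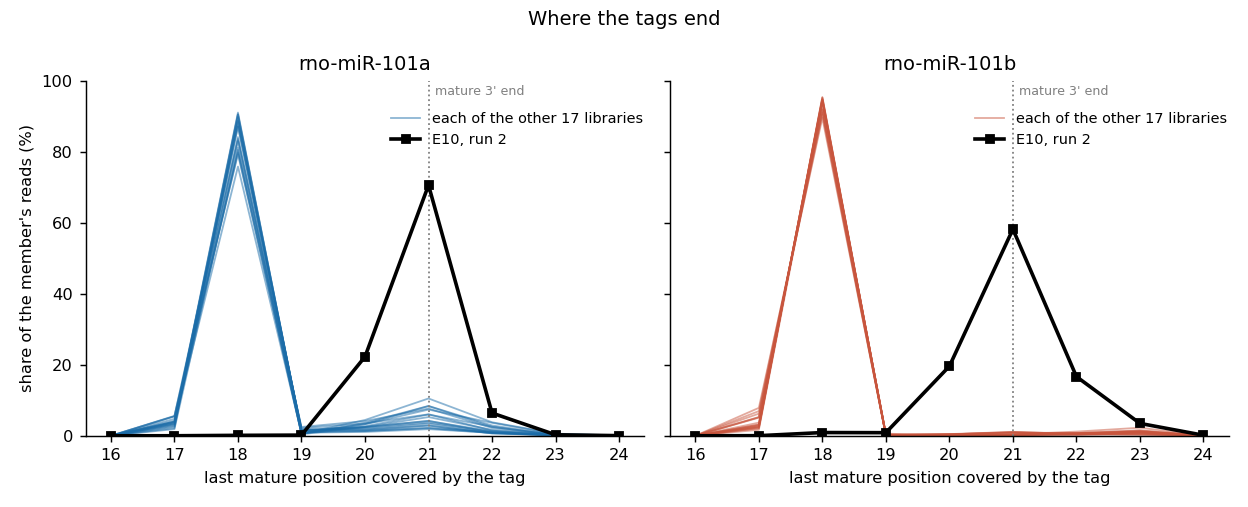
Share of the reads of rno-miR-101a (left) and rno-miR-101b (right) by the last mature position that a tag covers, in percent; each thin line is 1 of 17 libraries, the black line with squares is run 2 of E10, and the dotted line marks the mature 3′ end. The thin lines peak at position 18 and the black line at position 21.

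Reads that end before the mature 3′ end were less frequent in rno-miR-101a. As means of the runs, their share was 59.5% at E10 and between 90.2% and 94.6% in the other samples for rno-miR-101a, and 59.9% at E10 and between 96.7% and 98.6% in the others for rno-miR-101b. The E10 means join 2 unlike libraries, and run 1 of E10 alone gave 96.3% for rno-miR-101a and 98.3% for rno-miR-101b. The share was lower in rno-miR-101a in 9 of 9 samples, with a mean difference of miR-101a minus miR-101b of -4.62 percentage points (SD 2.12; exact sign-flip permutation p = 0.00391, adjusted p = 0.00589), and the difference was -6.33 points in run 1, -2.91 in run 2 and -4.80 with E10 from run 1 only. In run 2 of E10 alone the order was the opposite, with 22.6% for rno-miR-101a and 21.4% for rno-miR-101b.

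Reads that ran past the mature 3′ end carried different bases depending on where they started. Among the rno-miR-101a reads starting 1 nt early, 18226 went past the mature 3′ end, and the first added base was A in 94.5% of them and the templated G in 0.878%. Among those starting at the mature 5′ end, 32344 went past it, with A in 45.3% and G in 38.9%. The A is not in the hairpin at this place. For rno-miR-101b, the added base was A in 85.4% and G in 7.32% of 8126 early-starting reads, and A in 7.30% and G in 91.2% of 38947 reads with the mature 5′ end. Of these early-starting reads 6807 came from run 2 of E10, and in the 1319 others A made 74.7% and G 19.9%. For rno-miR-101a the 12033 early-starting reads of the other libraries had A in 95.4% and G in 0.881%. The share of A was higher in the early-starting reads in 18 of 18 libraries for both members, each with at least 20 such reads of either form. It had a median of 96.4% against 46.8% over the libraries for rno-miR-101a, and of 79.2% against 4.0% for rno-miR-101b. This contrast was chosen after the values were seen and is given as a description.

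The single base between the members limits what can be said of base changes. Of 4283427 reads with the sequence of either member up to position 18 or beyond, 45.6% had G at position 16, and a read of miR-101a changed by A16G is the same as a read of miR-101b. At the 5 other A positions from 2 to 17, tags with an A-to-G change made 0.0281% to 0.0539% of the unchanged reads, and no library went above 0.217%. Over the 45 changes at positions 2 to 17 other than 16, the median was 0.0416%, and the most frequent was G5U at 0.247%.

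Related sequences were scarce. The seed-sharing relative rno-miR-144-3p, which has the first 6 bases of the miR-101 seed and is known from red blood cell precursors, lay at 93.2 TPM at E10 and between 0.457 and 5.68 TPM in the other samples. Counted by the same rule as the members, the passenger strands rno-miR-101a-5p and rno-miR-101b-5p gave 20 and 7 reads over all 18 libraries. The 17 and 8 reads given above for the 5p arms are of tags that lie whole within the hairpin sequence.

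The names with the pattern most like each member were found over the 9 tissue samples by Pearson's r of log2(TPM + 1), among 61 names with a mean of at least 50 TPM. For rno-miR-101a they were rno-miR-181c (r = 0.70), rno-miR-124 (0.63), rno-miR-340-5p (0.57), rno-miR-181d (0.54) and Candidate 55 (0.53). For rno-miR-101b they were rno-miR-34c (0.94), rno-miR-107 (0.82), rno-miR-340-5p (0.71), rno-miR-181d (0.68) and rno-miR-199a-3p (0.54). The Spearman's rho of rno-miR-101b with rno-miR-34c was 0.70 and with rno-miR-181d 0.12, and E10 is the highest sample of rno-miR-101b. Without E10, r of rno-miR-101b was 0.76 with rno-miR-34c, 0.42 with rno-miR-107, -0.03 with rno-miR-340-5p, -0.16 with rno-miR-181d and 0.10 with rno-miR-199a-3p. For rno-miR-101a, r without E10 was 0.66, 0.80, 0.54, 0.51 and 0.44 with its 5 names in the order given. With E10 from run 1 only, r of rno-miR-101a was lower with rno-miR-124 (0.41) and Candidate 55 (0.17). It was higher with rno-miR-181c (0.78), rno-miR-340-5p (0.76) and rno-miR-181d (0.70). That of rno-miR-101b with rno-miR-34c was then 0.95. Between the members r was 0.41, and 0.67 with E10 from run 1 only. All names share the libraries and their totals.

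Other miRNAs described as acting on Ezh2 mRNA were set beside the pair. This list held rno-miR-26a, rno-miR-138, rno-miR-124 and the let-7 members b, d, e and i. Only let-7 members with a sequence among the names counted were taken. The list therefore lacks let-7a, let-7c and let-7f, which the study gives among its most abundant miRNAs. By the slope on stage order, 3 of its 7 names rose and 0 fell, beside 31 rises (20.9%) and 43 falls (29.1%) among all 148 names and 16 rises and 13 falls among the 59 known miRNAs. The median slope was 0.27 in the list, -0.07 over all names and 0.0097 over the known miRNAs. With library totals in place of TMM 1 of the 7 rose, rno-miR-138 (slope 0.55, edgeR adjusted p = 0.00289), beside 18 rises among all names. The risers under TMM were rno-miR-138 (slope 0.71 log2 per stage, SE 0.12, adjusted p = 0.000854 by edgeR), rno-let-7d (0.34, SE 0.12, adjusted p = 0.0325) and rno-let-7i (0.27, SE 0.09, adjusted p = 0.0302). For rno-miR-26a, known to repress Ezh2 in muscle cells, the fit gave a slope of 0.13 (SE 0.13, adjusted p = 0.425). In the comparison of late postnatal with embryonic samples 1 of the 7 was higher, beside 26 of all 148 names (17.6%). This was rno-miR-138, with a log2 fold change of 3.98 (edgeR adjusted p = 0.00214). With 171 TPM at E10 and 1272 TPM at P28, it stayed below the level of either member in every sample.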

How the data were processed

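Total RNA was size-fractionated on a gel and sequenced on the Illumina Genome Analyzer. The authors removed low quality reads, adapters and contaminants. For each library they deposited the unique clean tags with the count of reads of each, not normalized. A level is the count of a member's tags per 1000000 clean reads of the library, averaged over runs. Intervals take in counting error alone, because PCR copies are not separate molecules. Names and mature sequences came from the study's primers (30), its nucleotide-change list (29) and its candidates (101); RefSeq gave the mature 3′ ends. edgeR 4.0.16 (R 4.3.3) tested counts summed over runs, where a name reached 10 counts in 2 or more tissue samples, with 5% as the threshold on the adjusted p. DESeq2 1.42.0 was an alternative. Shares and the ratio were tested by exact two-sided permutation in Python 3.11.15, adjusted over 5 tests. The counting and the fits were tested on simulated data. The members, lists and tests were chosen with earlier results of these data known. The names given singly by rule are the members, the 5 most like each and the Ezh2 list; rno-miR-128-3p, rno-miR-144-3p and the 5p strands were added for context. Run numbers, used as a replicate block, are the technical replicate numbers of the labels. The labels do not say that libraries with the same number were sequenced together. Run 1 deviations correlated above 0.1 in 34 of 36 pairs of samples, with a median of 0.27 and a lowest value of -0.02. The libraries of run 1 were not alike in their 3′ ends, as given above.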

Additional observations from a re-analysis of the deposited data

How the results depend on the processing

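Some alternatives were chosen after seeing the data: E10 from run 1 only, tags ending at position 20 or later (also with E10 from run 1 only), the ratio from summed reads, the Ezh2 list with library totals, and the end shares without E10 and E13. The slope of rno-miR-101a, 0.07, changed sign with library totals (-0.057), in run 1 (-0.0052), with identical tags only (-0.0045) and without E10 and E13 (-0.15), and was -0.028 to 0.14 with 1 sample left out. That of rno-miR-101b, 0.06, changed sign with library totals (-0.085), in run 1 (-0.17), with identical tags (-0.24), with the run as a replicate block (-0.0053) and with E10 from run 1 only (-0.035). It passed in run 2 (0.21) and was -0.011 to 0.11 with 1 sample left out. The replicate block gave 0.02 for rno-miR-101a and changed no call of either member. The 74 names past the slope threshold became 34 in run 1, 44 without E10 and E13 and 212 of 477 with all RefSeq names (56 to 74 with 1 sample left out). Late against embryonic changed sign with library totals for rno-miR-101a (-0.24) and rno-miR-101b (-0.33), and for rno-miR-101b in run 1 (-0.43) and with E10 from run 1 only (-0.051). With 1 sample left out it was 0.10 to 0.51 and 0.12 to 0.59. The 67 names past that threshold were 37 in run 1 and 38 to 76 with 1 sample left out, with 40 without P14 and 38 without P28. The r of the log2 ratio, -0.19, was 0.34 in run 2, 0.72 without E10 and E13, and -0.32 to 0.36 with 1 sample left out, positive without E10 alone. The r of the early-starting share of rno-miR-101a missed the threshold in run 2 (-0.65) and without E10 and E13 (-0.57), and was -0.88 to -0.72 with 1 sample left out. That of rno-miR-101b missed it in tags ending at position 20 or later with E10 from run 1 only (-0.56) and passed under the other alternatives run. Both differences between the members passed under every alternative run. The cause of these changes was not tested. Depth limits the shares in long tags, which rest on as few as 992 reads in a library, and those of bases past the mature 3′ end.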
